A study of Mus musculus with 16 samples.

Results

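The late step of c-Raf stimulation in mouse embryonic stem cells was examined by setting 24h of stimulation against 8h. The comparison set 2 arrays at 24h against 2 at 8h, 4 of the 16 arrays of the series, taken by their time label and paired by replicate number. The spread behind each p-value was estimated over all 16 arrays in 8 groups. All cells were E14tg2a, an established stem cell line, and held an activated form of c-Raf fused so that tamoxifen switches it on. Cells of both groups had 24 h of pre-treatment with 250 nM PD173074, a blocker of FGF receptors, and then 250 nM 4-hydroxytamoxifen (4OHT) for 24 h or for 8 h. All were grown in serum and LIF, a cytokine that sustains self-renewal, on gelatin. The other groups entered the fit for the spread and are given as earlier levels. Those at 30m, 1h, 2h and 4h had the same pre-treatment and then 4OHT for the time in their name. The 0h group had 24 h of the inhibitor and no 4OHT, and the DMSO group is labelled with DMSO as its only agent and no time. Which promoter drives the fusion and whether the line is 1 clone are not given in the sources used here. The 24h cells had also been longer in culture, and longer in the inhibitor if it stayed on during 4OHT. Time in culture and time of stimulation cannot be told apart. The labels do not say whether replicates are separate cultures, and p-values measure only the spread between the 16 arrays, which may be technical.

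c-Raf is the first kinase of a cascade in which MEK activates ERK, and FGF4 made by the stem cells themselves is its usual trigger in this tissue. ERK activity moves mouse embryonic stem cells out of the naive state, which is held by factors such as Nanog, Esrrb and the Klf family, and towards lineage commitment. Genes that answer ERK fall into immediate early transcription factors, feedback inhibitors such as the Dusp phosphatases and Sprouty proteins, and later genes of cell identity.

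The series holds 2 records of which array is which sample, and they differ for 8 of the 16 arrays. The identity in the headings of the deposited value table was used, and there 1 slide carries every replicate 1 and the other every replicate 2. The scanner files of 24h replicate 1 and 8h replicate 1 were attached to other samples. Grouped as attached, limma called 9 genes, none of which was among those called below. On the 4 arrays, 54.9% to 64.6% of spots lay well above background. The replicates correlated over genes at 0.987 at 24h and 0.982 at 8h, and 6.42% of genes at 24h against 10.2% at 8h lay over 2-fold apart between replicates. All 8 stem cell markers examined were well above background on the 4 arrays, and 5 of them were called lower at 24h and 0 higher, where 10.2% of all tested genes were called lower. Their summed signal, in multiples of the 75th percentile of each array, was 337 and 381 at 24h, against 539 and 475 at 8h. None of the 5 tested fibroblast markers was called, with sums of 14.3 and 13.6 at 24h against 19.5 and 13.0 at 8h.

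The level of a gene is given as log2 of its signal minus the 75th percentile of its array, so 0 is the level that 1 spot in 4 exceeds. A change is the 24h level minus the 8h level, in log2 units with its standard error, and a gene is called at an adjusted p under 0.05 in limma with replicate number as a block (n = 2 arrays per group). Of 15662 genes tested, 3582 were called (22.9%), 1982 higher at 24h (12.7%) and 1600 lower (10.2%). Both replicate pairs moved the same way in 3581 of them, and the remaining gene, Ccnd3, had no value for the replicate 1 pair. Calling a gene already selects for pairs that move together, so this count is a description only. The median size of a called change was 0.75, and 698 of the higher and 489 of the lower genes differed at least 2-fold. Without the replicate block 1384 genes were called (8.84%), 821 higher (5.24%) and 563 lower (3.59%), and all 1384 were also called with it. Leaving out 24h replicate 1 left 1831 calls, 1041 higher and 790 lower, and leaving out 8h replicate 2 left 1008 lower genes. A fit of the 4 arrays alone, with 1 residual degree of freedom, called 0 genes in limma, with 3938 at an unadjusted p under 0.05. In all, 965 genes, 582 higher and 383 lower, stayed called without the block and without each of the 4 arrays in turn. Below, "called in every fit" means called with the block and in the 5 fits just named. It leaves aside the fit of 4 arrays alone and every other scaling, background correction, filter, probe averaging and array identity. A gene so described may lose its call there. Each list count below from the fit with the block is to be read beside the shares over all tested genes, 12.7% higher and 10.2% lower. Counts without the block are to be read beside 5.24% higher and 3.59% lower. Each fit without 1 array also called fewer genes over all, so a smaller list count there is not particular to the list. The step just before, 8h against 4h, which shares the 8h arrays, had 1353 calls (8.64%).

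**Figure D1:**
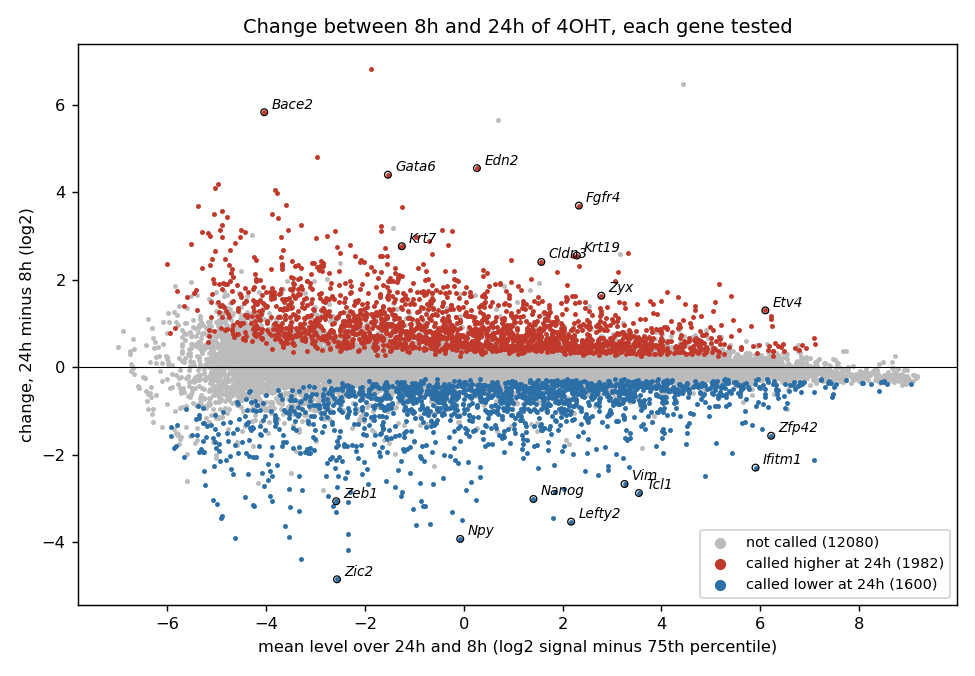
Change of each tested gene (vertical axis, 24h minus 8h, log2) against its mean level over the 4 arrays (horizontal axis, log2 relative to the 75th percentile), with called genes in red (higher at 24h) or blue (lower). The 1982 higher and 1600 lower genes lie at all levels, and the circled genes are described in the text.

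The median change over all tested genes was 0.02. Scaling the arrays on the median of 17 housekeeping genes instead, an alternative added after the data were seen, moved that median to 0.31 and the split to 5199 higher and 596 lower. Scaling on the mean of the same genes gave 0.04, with 2054 higher and 1417 lower. Under the housekeeping median every negative list median turned positive, except those of the naive (-0.71), trophoblast (-0.25) and neural (-0.19) lists. None of the 194 called genes named by the rule changed direction under either housekeeping scaling, median centring or quantile normalization. Some lost their call: 45 on the housekeeping median, 6 on the housekeeping mean, 3 with median centring and 11 with quantile normalization.

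Of 22 naive pluripotency genes tested, 12 fell and 1 rose, where 10.2% of all genes fell, and the median change was -1.003, or -1.38 to -0.52 with 1 array left out (6 fell and 0 rose without the replicate block). Nanog, the transcription factor at the centre of the naive network, had levels of -1.76 and 1.57 at 24h, against 2.36 and 3.47 at 8h. Both 24h arrays were below both 8h arrays, and the 24h arrays lay far apart. Nanog fell by 3.01 ± 0.75 (adjusted p = 0.0196), which is 8.06-fold. Its adjusted p was 0.0522 without 8h replicate 1 and 0.102 without 8h replicate 2. Nanog had been at 4.54 on average at 0h, in the inhibitor without 4OHT. Its promoter is shown because it holds the composite site that Oct4 and Sox2 are known to bind. The 250 bases before the more downstream of its 2 listed starts are at chr6:122707315-122707564 on the plus strand (RefSeq, GRCm38.p6). Capitals mark the octamer part, TTTGCAT, 151 bases before the start, and the Sox part, CATTGT read on the other strand, 143 bases before it.
Nanog: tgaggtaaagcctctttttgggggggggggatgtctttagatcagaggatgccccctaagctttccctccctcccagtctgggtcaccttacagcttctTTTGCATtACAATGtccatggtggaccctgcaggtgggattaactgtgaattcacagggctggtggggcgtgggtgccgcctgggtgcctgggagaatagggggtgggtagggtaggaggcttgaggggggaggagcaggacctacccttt
These letters were found in 4.12% (TTTGCAT) and 10.7% (CATTGT) of 32851 promoter windows of the same length, both strands searched.

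The other naive factors fell by different amounts. Zfp42 (Rex1), a zinc finger marker of the naive state, had levels of 5.13 and 5.75 at 24h, against 7.28 and 6.74 at 8h. The groups did not overlap, the fall was 1.57 ± 0.25 (adjusted p = 0.00292), and it was called in every fit. The 1 other naive gene called in every fit was Dppa3 (-1.95 ± 0.29, adjusted p = 0.00207), picked out after its values were seen. Tcl1, a cofactor of the kinase Akt, had levels of 0.71 and 3.50 at 24h, against 4.68 and 5.28 at 8h. It fell by 2.88 ± 0.66 (adjusted p = 0.0136, and 0.0712 without 8h replicate 2). Tbx3, a T-box factor, fell by 1.96 ± 0.37 (adjusted p = 0.00566, and 0.0517 without 24h replicate 1). Esrrb, an orphan nuclear receptor, had levels of 4.61 and 6.06 at 24h, against 6.53 and 6.96 at 8h. Its fall of 1.41 ± 0.37 (adjusted p = 0.0249) was not called without 24h replicate 1 (0.0885), 8h replicate 1 (0.0563) or 8h replicate 2 (0.127).

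Prdm14, a regulator of the naive state and of germ cells, fell by 2.63 ± 0.67 (adjusted p = 0.0209). It was not called without the block (0.0886), without 24h replicate 1 (0.144) or without 8h replicate 2 (0.135). Tfcp2l1, a target of STAT3, fell by 1.50 ± 0.30 (adjusted p = 0.00728), but not without the block (0.196) or without 8h replicate 2 (0.0506). Klf2 fell by 0.89 ± 0.24 (adjusted p = 0.0257, but 0.0592 without the block, 0.164 without 24h replicate 1 and 0.138 without 8h replicate 2). Klf4, at 0.23 and 2.25 at 24h against 2.40 and 3.43 at 8h, was not called (-1.67 ± 0.60, adjusted p = 0.0724). Gbx2, a homeobox gene, went the other way, at 3.70 and 3.001 at 24h against 2.76 and 1.57 at 8h (1.18 ± 0.20, adjusted p = 0.0033, and 0.398 without the block). The count of naive genes that fell was 5 without 24h replicate 1, 13 without 24h replicate 2, 7 without 8h replicate 1 and 4 without 8h replicate 2.

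The 2 arrays at 24h differed in how far the naive genes had moved. The median change of the list was -1.39 in the replicate 1 pair and -0.70 in the replicate 2 pair, and 24h replicate 1 lay 0.63 below 24h replicate 2 at the median member, where the median gene of the array lay 0.06 above it. At 8h that gap was -0.08 and at 0h it was 0.10. All 12 falling members were lower in 24h replicate 1 than in 24h replicate 2, but the share of all falling genes that were so was not counted. A larger change in the replicate 1 pair was not particular to the naive list. The pair medians were 0.55 and 0.23 in the epithelial junctions and keratins list, and 0.64 and 0.27 in the p53 and apoptosis list. The ERK feedback and ETS list was 1 that went the other way, at 0.39 and 0.58. In these bulk samples, a smaller share of cells expressing a gene and less RNA per cell cannot be told apart.

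**Figure D2:**
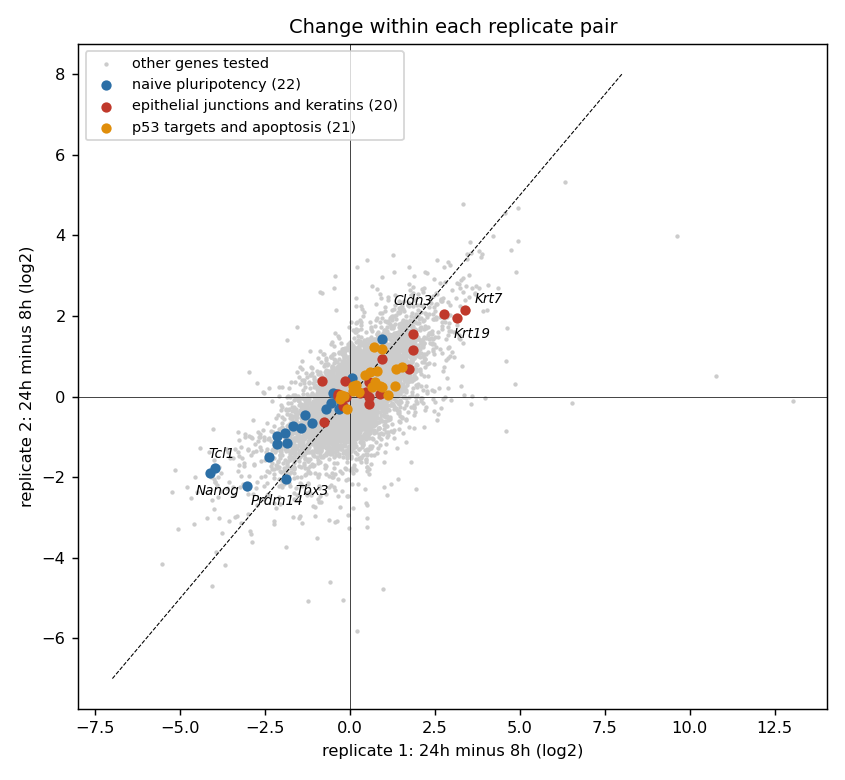
Change within each replicate pair (horizontal axis, replicate 1; vertical axis, replicate 2; 24h minus 8h, log2) for all tested genes in grey and members of 3 gene lists in colour, with the line of equal change dashed. Naive pluripotency genes lie lower left, with a median of -1.39 in replicate 1 and -0.70 in replicate 2.

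The core factors moved little. Pou5f1 (Oct4), which pluripotent cells of every state need, had levels of 6.30 and 6.23 at 24h, against 6.65 and 6.00 at 8h, and was not called (-0.06 ± 0.24, adjusted p = 0.887). Both 24h values lay between the 8h values. Sox2, its partner, fell by 0.52 ± 0.12 (adjusted p = 0.0145), with 3.78 and 3.80 at 24h against 4.36 and 4.25 at 8h. That call was lost without 24h replicate 1 (0.0605), 24h replicate 2 (0.0574) or 8h replicate 1 (0.0912). Sall4, a zinc finger partner of Oct4, fell by 0.65 ± 0.09 (adjusted p = 0.00189) and was called in every fit. In the core list of 12 tested genes, 4 fell and 0 rose, with a median of -0.15, or -0.34 to 0.0035 with 1 array left out. When the arrays were scaled on the housekeeping median, 0 fell and 3 rose, so Sall4 was not called lower there. Under that scaling 5199 of all 15662 tested genes were called higher and 596 lower. Without 24h replicate 1 or 8h replicate 1 the count that fell was 1, and without 8h replicate 2 it was 2.

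Genes of the formative state, the step between naive cells and lineage priming, did not move as 1 block. Of 20 tested, 7 fell and 2 rose, with a median of -0.02, or -0.44 to 0.08 with 1 array left out (3 fell and 0 rose without the block, 3 fell without 24h replicate 1, and 1 rose without 24h replicate 2 or 8h replicate 2). Zic2, a zinc finger factor of the epiblast, had levels of -5.71 and -4.27 at 24h, against -0.16 and -0.13 at 8h. It was well above background on 1 of the 2 arrays at 24h. The drop of 4.85 ± 0.95 (adjusted p = 0.00688, and 0.0523 without 24h replicate 1) is uncertain in size. Its value on 24h replicate 1 lay under -4.39, the lowest level well above background on that array. Its neighbour in family, Zic5, fell by 2.77 ± 0.80 (adjusted p = 0.0352), also above background on 1 of the 2 arrays at 24h. It was not called without the block (0.0533), without 24h replicate 1 (0.0874), or without 8h replicate 1 (0.0982) or 2 (0.137).

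Foxd3, a forkhead factor of the epiblast, had levels of -0.11 and 0.59 at 24h, against 2.21 and 2.01 at 8h, and fell by 1.87 ± 0.27 (adjusted p = 0.0018). Cd24a, a surface glycoprotein, fell by 1.95 ± 0.25 (adjusted p = 0.00102). These were the 2 members of the list called in every fit. Fgf5, the classical ligand of the early epiblast, fell by 1.84 ± 0.33 and Otx2, a homeobox factor of the formative state, by 0.84 ± 0.16, but neither was called without the block (adjusted p = 0.12 and 0.171). Otx2 also lost its call without 24h replicate 1 (0.0566). Pou3f1 (Oct6), at 4.10 and 3.35 at 24h against 3.45 and 2.46 at 8h, was not called (adjusted p = 0.117). Sox11 rose by 1.33 ± 0.20 (adjusted p = 0.00222, and 0.0726 without the block).

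**Figure D3:**
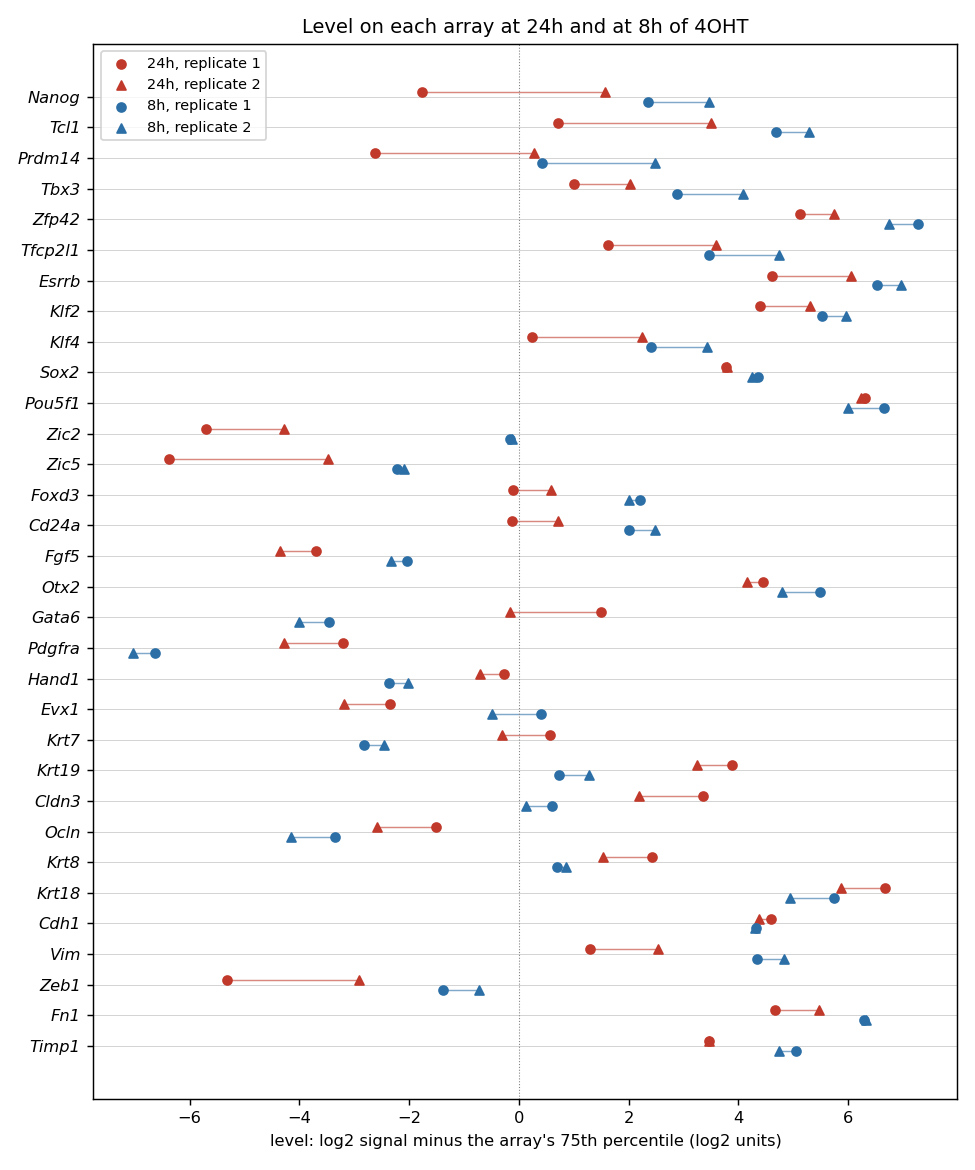
Level of 32 genes on each array (horizontal axis, log2 relative to the 75th percentile), with 24h in red above 8h in blue, circles for replicate 1 and triangles for replicate 2. Gata6 and the keratins lie right of their 8h values, Nanog, Zic2 and Vim lie left, and Pou5f1 and Cdh1 lie close to theirs.

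Lineage lists held both rises and falls, and the largest rise among them was that of Gata6. Gata6, the factor that starts primitive endoderm, had levels of 1.49 and -0.16 at 24h, against -3.47 and -4.01 at 8h. Both 24h arrays were far above both 8h arrays, and 24h replicate 1 was the higher. Gata6 rose by 4.40 ± 0.40 (adjusted p = 0.000255), 21.1-fold, and was called in every fit. Pdgfra, a receptor of primitive endoderm and mesoderm, was not well above background at 8h and was higher at 24h by at least 2.51-fold (adjusted p = 0.000128, called in every fit). An "at least" value sets the bright group against the dimmest signal that passed as above background on the arrays of the dim group.

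Of 24 tested members of the primitive endoderm list, 2 rose, Gata6 and Pdgfra, and 5 fell, with a median of -0.22. The count that rose was 4 without 24h replicate 2, and the count that fell was 3 without 24h replicate 2 and 2 without 8h replicate 1 or without the block. Gata4 stood at -2.65 and -2.48 at 24h, against -2.89 and -2.99 at 8h (0.37 ± 0.53, adjusted p = 0.659). Sox17 stood at -3.18 and -3.96 at 24h, against -4.53 and -4.80 at 8h, and was not called (1.09 ± 0.39, adjusted p = 0.0723). Dab2, an endocytic adaptor, was not well above background at 24h. Lama1, a laminin chain of basement membrane, fell by 1.45 ± 0.18 (adjusted p = 0.000912, called in every fit). The summed signal of 9 primitive endoderm markers was 3.51 and 1.65 at 24h, against 0.75 and 0.72 at 8h, with 1 of the 9 called, Gata6. Without Gata6 the other 8 summed to 0.71 and 0.76 at 24h, against 0.66 and 0.66 at 8h.

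Among 25 primitive streak and mesoderm genes, 6 rose and 5 fell, with a median of -0.07, or -0.23 to 0.03 with 1 array left out (5 and 3 without the block, and 3 fell without 24h replicate 2 or 8h replicate 2). Hand1, a helix-loop-helix factor of mesoderm and trophoblast, had levels of -0.27 and -0.71 at 24h, against -2.37 and -2.03 at 8h, and rose by 1.71 ± 0.29 (adjusted p = 0.0035). Evx1, a homeobox factor that marks the streak, had levels of -2.34 and -3.18 at 24h, against 0.41 and -0.48 at 8h, and fell by 2.73 ± 0.27 (adjusted p = 0.000327). Meis2, a homeobox cofactor, fell by 2.04 ± 0.20 (adjusted p = 0.00034), and these 3 genes were called in every fit. Of the members called in every fit, 4 rose and 2 fell. Those that rose were Hand1, Pdgfra, Mesp1 and Cdx1, of which Mesp1 and Cdx1 were picked out after their values were seen. T (Brachyury), the marker of the streak, was not above background at 24h and at least 1.82-fold lower than at 8h (adjusted p = 0.0454). The call of T was lost without the block (0.298), without 24h replicate 2 (0.244) and without 8h replicate 1 (0.153) or 2 (0.126). Fgf8, a ligand of the streak, fell by 0.96 ± 0.24 on its brightest probe (adjusted p = 0.0196, but 0.14 without 24h replicate 1 and 0.132 without 8h replicate 2), while the mean over its probes changed by 0.19.

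Of 18 trophoblast genes tested, 5 rose and 5 fell, with a median of -0.54, or -0.58 to -0.15 with 1 array left out (3 and 1 without the block). Without 24h replicate 1 the count that rose was 3, and the count that fell was 1 without 24h replicate 2 and 3 without 8h replicate 2. Among those that rose were Krt7, Hand1, Krt8 and Krt18, and Krt7 and Hand1 were called in every fit. Tfap2a, an AP-2 factor, fell by 2.53 ± 0.41 (adjusted p = 0.00294, called in every fit), and Tead4, which acts upstream of Cdx2 in the embryo, by 0.98 ± 0.27 (adjusted p = 0.0301, but 0.185 without the block, 0.174 without 24h replicate 2 and 0.184 without 8h replicate 1). Cdx2, the caudal factor of trophectoderm, stood at -0.68 and -2.44 at 24h, against 0.37 and -1.19 at 8h, and was not called (adjusted p = 0.163). Neural genes fell in 3 of 11 cases and rose in none. Pax6, a paired-box factor, had levels of -4.47 and -3.39 at 24h, against -1.24 and -1.16 at 8h (-2.74 ± 0.27, adjusted p = 0.00035), and was above background on 1 of the 2 arrays at 24h. The size of that fall is uncertain, since -4.47 lies under -4.39, the lowest level well above background on 24h replicate 1. Tubb3, a neuronal tubulin, fell by 1.54 ± 0.16 (adjusted p = 0.000354), and both were called in every fit. Summed over 4 neural markers, the signal was 1.27 and 2.51 at 24h, against 3.68 and 5.98 at 8h. Most of that sum was Tubb3, at -0.12 and 0.93 at 24h against 1.55 and 2.33 at 8h. Of the 4 markers, 2 were called lower, Pax6 and Tubb3, while Sox1 and Hes5 were not called.

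Keratins 8, 18, 19 and 7 form the intermediate filaments of simple epithelia, and claudins and occludin seal the tight junctions between such cells. Of 20 genes of epithelial junctions and keratins, 8 rose, where 12.7% of all genes rose, and 1 fell, with a median of 0.28, or 0.13 to 0.46 with 1 array left out (4 and 0 without the block, and 5 higher without 24h replicate 1). Krt7 had levels of 0.57 and -0.31 at 24h, against -2.82 and -2.45 at 8h, and rose by 2.77 ± 0.27 (adjusted p = 0.000327). Krt19 had levels of 3.89 and 3.24 at 24h, against 0.74 and 1.29 at 8h, and rose by 2.55 ± 0.25 (adjusted p = 0.000327). Cldn3 had levels of 3.36 and 2.19 at 24h, against 0.59 and 0.14 at 8h, and rose by 2.41 ± 0.28 (adjusted p = 0.000673). These were the 3 members of the list called in every fit.

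Krt8 and Krt18, which pair in the same filament, rose by 1.21 ± 0.26 (adjusted p = 0.0106) and 0.94 ± 0.29 (adjusted p = 0.0468). Krt8 lost its call without 24h replicate 1 (0.0589) or 8h replicate 1 (0.0635), and Krt18 lost it without the block (0.0809), without 24h replicate 1 (0.304) and without 8h replicate 2 (0.289). Ocln, occludin, rose by 1.70 ± 0.26 (adjusted p = 0.00224, and 0.121 without the block). Cdh1 (E-cadherin), the adhesion protein of epithelia and stem cells, was at 4.59 and 4.38 at 24h, against 4.32 and 4.30 at 8h, and was not called (0.18 ± 0.10, adjusted p = 0.226). Jup, a protein of desmosomes, fell by 0.71 ± 0.14 (adjusted p = 0.00667, but 0.0742 without the block and 0.0559 without 24h replicate 1).

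The promoters of Krt7 and Krt8 are shown because they hold CAGGTG, the letters of the E-box that Zeb1 and Snail factors are known to bind, and because Zeb1 moved in the same comparison. The 250 bases before each start are at chr15:101412153-101412402 on the plus strand for Krt7 and at chr15:102004343-102004592 on the minus strand for Krt8 (RefSeq, GRCm38.p6). Capitals mark the motif, read on the other strand, 44 bases before the start of Krt7 and 111 before that of Krt8.
Krt7: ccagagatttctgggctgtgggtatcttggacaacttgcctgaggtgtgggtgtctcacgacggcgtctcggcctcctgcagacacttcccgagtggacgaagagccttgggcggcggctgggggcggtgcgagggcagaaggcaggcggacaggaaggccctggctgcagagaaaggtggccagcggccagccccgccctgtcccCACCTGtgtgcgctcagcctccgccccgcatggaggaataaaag
Krt8: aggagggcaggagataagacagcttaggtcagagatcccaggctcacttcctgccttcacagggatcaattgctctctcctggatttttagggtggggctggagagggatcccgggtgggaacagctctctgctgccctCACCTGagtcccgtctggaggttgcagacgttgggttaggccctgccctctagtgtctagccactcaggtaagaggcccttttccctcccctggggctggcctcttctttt
CAGGTG was in 17.2% of all 32851 windows, and the Nanog window shown earlier holds it too, 121 bases before its start, so the match is a description only. Krt7 and Krt8 were picked for holding it, and other promoters of the list are not shown. Any link to Zeb1 was not tested. Both strands of the 3 windows were also searched for 6 other motifs, of which the share of all windows is given: TGANTCA (6.75%), CCGGAAGT (2.88%), AGATAA (9.99%), GCGTGGGCG (0.536%), GGGCGGGG (16.1%) and GCCNNNGGC (13.7%). Krt7 held GGGCGGGG 58 bases and GCCNNNGGC 146 and 70 bases before its start, with no overlap with the marked letters, and Krt8 held AGATAA 239 bases before its start.

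Zeb1, a zinc finger repressor of epithelial genes, had levels of -5.31 and -2.92 at 24h, against -1.38 and -0.72 at 8h. It was well above background on 1 of the 2 arrays at 24h, fell by 3.06 ± 0.42 (adjusted p = 0.00139) and was called in every fit. The size of that fall is uncertain, since -5.31 lies under -4.39, the lowest level well above background on 24h replicate 1. Vim (vimentin), the intermediate filament of mesenchymal cells, had levels of 1.30 and 2.54 at 24h, against 4.34 and 4.83 at 8h. It fell by 2.67 ± 0.21 (adjusted p = 0.000128), 6.36-fold, and was called in every fit.

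The mesenchymal and matrix list as a whole moved both ways, with 7 of 24 members lower, 5 higher and a median of -0.11, or -0.40 to 0.10 with 1 array left out (4 and 3 without the block). The counts were 4 lower and 2 higher without 24h replicate 1, and 2 were higher without 8h replicate 2. Fn1, fibronectin, fell by 1.25 ± 0.21 (adjusted p = 0.00322), and Timp1, an inhibitor of matrix proteases, by 1.42 ± 0.11 (adjusted p = 0.000128). Timp3, of the same inhibitor family, rose by 1.99 ± 0.30 (adjusted p = 0.00209), with 0.95 and -0.54 at 24h against -1.55 and -2.01 at 8h. Fn1, Timp1 and Timp3 were called in every fit. Mmp9, a gelatinase, rose by 1.84 ± 0.39 (adjusted p = 0.00979, but 0.067 without 24h replicate 1 and 0.0681 without 8h replicate 1). Cdh2 (N-cadherin), at 2.72 and 1.82 at 24h against 2.06 and 1.22 at 8h, was not called (adjusted p = 0.11). Among actin and SRF target genes, 5 of 22 rose and 2 fell, with a median of -0.12, or -0.14 to 0.01 with 1 array left out (2 and 2 without the block, 3 rose without 8h replicate 2, and 4 fell without 8h replicate 1). Zyx, zyxin of focal adhesions, rose by 1.64 ± 0.16 (adjusted p = 0.000315), and Actn1, an actin crosslinker, fell by 0.68 ± 0.11 (adjusted p = 0.00285), both called in every fit.

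**Figure D4:**
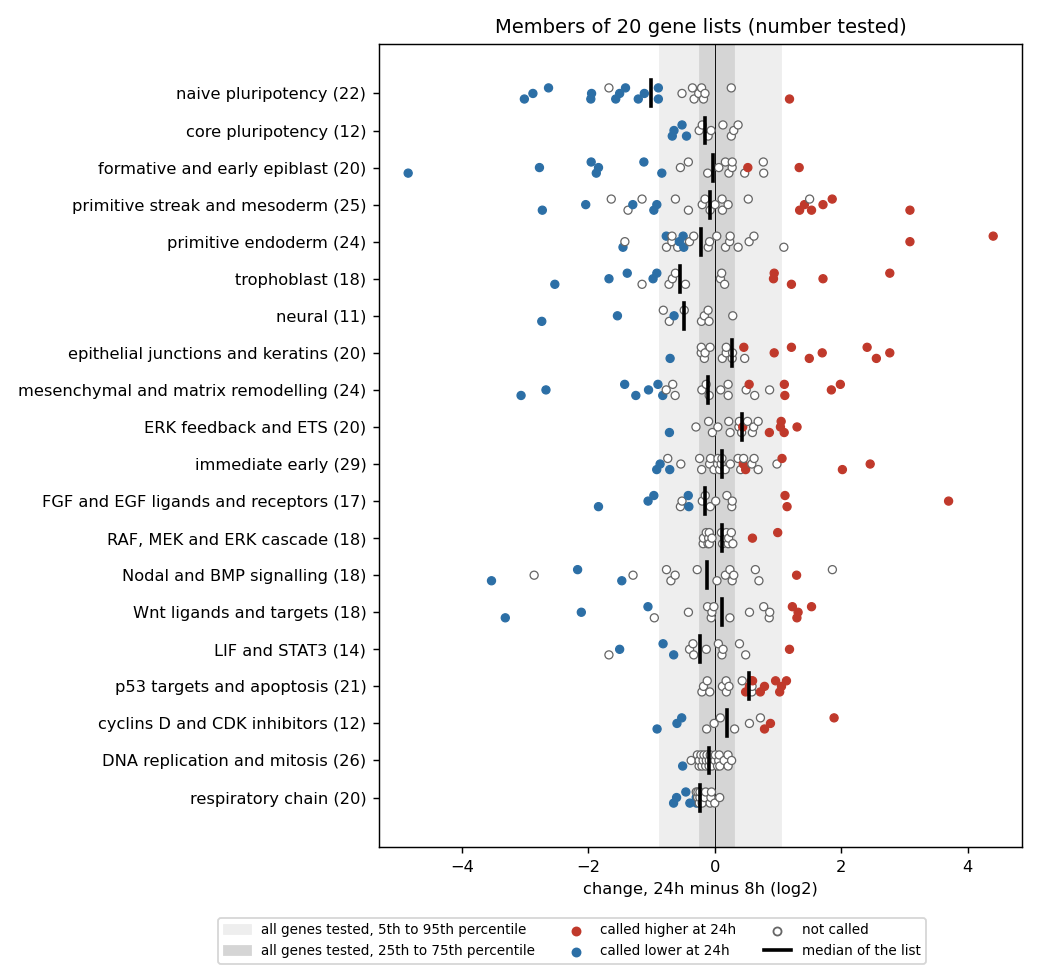
Change of each tested member of 20 gene lists (horizontal axis, 24h minus 8h, log2), filled red or blue where called higher or lower at 24h and open where not called, with the list median as a black bar and the spread of all tested genes as grey bands. The naive pluripotency median is at -1.003 and the p53 and apoptosis median at 0.55, while the DNA replication and mitosis members lie close together around -0.09.

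In the ERK feedback and ETS list, 6 of 20 genes rose between 8h and 24h and 1 fell, with a median of 0.43, or 0.29 to 0.56 with 1 array left out, but none was called without the replicate block. The count that rose was 2 without 24h replicate 1 and 3 without 8h replicate 1. Etv4, an ETS factor of the PEA3 group, had levels of 7.17 and 6.34 at 24h, against 5.97 and 4.94 at 8h. Replicate 1 was the higher array at both times, the groups did not overlap, and the change was 1.30 ± 0.28 (adjusted p = 0.0107, and 0.332 without the block). The call was also lost without 24h replicate 2 (0.0567) or 8h replicate 1 (0.0538). Dusp4, a nuclear ERK phosphatase, rose by 1.05 ± 0.20 (adjusted p = 0.00625, and 0.427 without the block).

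Several well-known ERK readouts were not called. Dusp6, a cytoplasmic ERK phosphatase, stood at 6.28 and 5.73 at 24h, against 5.94 and 4.88 at 8h (0.59 ± 0.24, adjusted p = 0.103). Spry4 stood at 1.98 and 2.43 at 24h, against 2.10 and 1.55 at 8h (adjusted p = 0.476), and Phlda1 at 5.74 and 4.77 at 24h, against 5.24 and 4.23 at 8h (adjusted p = 0.273). In this list replicate 1 lay above replicate 2 at the median member by 0.53 at 24h, by 0.48 at 8h and by 0.49 at 0h.

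Immediate early genes rose in 5 and fell in 3 of 29 cases, with a median of 0.11, or -0.04 to 0.33 with 1 array left out (1 and 2 without the block, and 3 and 0 without 24h replicate 1). These counts lie near the shares over all tested genes, 12.7% higher and 10.2% lower. Egr4, a zinc finger factor, had levels of -2.95 and -2.99 at 24h, against -6.09 and -4.77 at 8h, where 1 of the 2 arrays was well above background. It rose by 2.46 ± 0.46 (adjusted p = 0.00545) and was the 1 member called in every fit. The size of that rise is uncertain, since -6.09 lies under -4.89, the lowest level well above background on 8h replicate 1. Atf3, a stress-induced leucine zipper factor, rose by 2.02 ± 0.28 (adjusted p = 0.00157, and 0.104 without the block). Egr1 stood at 5.08 and 4.43 at 24h, against 6.01 and 4.58 at 8h (-0.54 ± 0.28, adjusted p = 0.206). Fos stood at 0.21 and -0.31 at 24h, against 1.30 and 0.08 at 8h (adjusted p = 0.126), and Fosl1 (adjusted p = 0.623) and Myc (adjusted p = 0.0999) were not called either. Ccn2, a matricellular protein, fell by 0.86 ± 0.20 (adjusted p = 0.0152, but 0.082 without 24h replicate 1 and 0.0825 without 8h replicate 2).

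Among ligands and receptors of the FGF and EGF families, the largest rise was that of Fgfr4. Fgfr4, a receptor for FGF ligands, had levels of 4.62 and 3.74 at 24h, against 0.83 and 0.13 at 8h. The groups were far apart, and the rise of 3.70 ± 0.16 (adjusted p = 5.21e-06), 13.0-fold, was called in every fit. Egfr, the EGF receptor, rose by 1.14 ± 0.15 (adjusted p = 0.00125), with -1.29 and -1.52 at 24h against -2.49 and -2.61 at 8h, and was called in every fit. Nrg1, neuregulin, rose by 1.11 ± 0.18 (adjusted p = 0.00273, and 0.263 without the block), and Erbb2, its co-receptor, fell by 0.42 ± 0.09 (adjusted p = 0.0123, but 0.132 without the block, 0.0529 without 24h replicate 1 and 0.0665 without 8h replicate 1). In all, 3 of 17 FGF and EGF ligands and receptors rose and 5 fell, with a median of -0.15, or -0.36 to 0.01 with 1 array left out (2 and 1 without the block, and 3 fell without 24h replicate 1 or 8h replicate 1). Among 18 genes of the RAF, MEK and ERK cascade, 2 rose and 0 fell, with a median of 0.11, or -0.03 to 0.14 with 1 array left out. Sos2, an exchange factor of Ras, was 1 of them (0.99 ± 0.24, adjusted p = 0.0178, but 0.0764 without 24h replicate 1, 0.0975 without 8h replicate 2).

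Genes of other signalling pathways changed one by one. Lefty2, a secreted inhibitor of Nodal, had levels of -1.39 and 2.20 at 24h, against 3.43 and 4.44 at 8h, and fell by 3.53 ± 0.73 (adjusted p = 0.00865). The 24h arrays lay far apart, with replicate 1 the lower, and Lefty2 was called in every fit. Bmp8b, a BMP ligand, rose by 1.29 ± 0.19 (adjusted p = 0.00209), and Id4, a target of BMP signals, fell by 2.17 ± 0.44 (adjusted p = 0.00822, but 0.0706 without 24h replicate 1 and 0.059 without 8h replicate 2). In the Nodal and BMP list 3 of 18 genes fell and 1 rose, with a median of -0.12, or -0.49 to -0.11 with 1 array left out. The count that fell was 1 without 24h replicate 1 or 8h replicate 2, 6 without 24h replicate 2, 5 without 8h replicate 1, while 2 rose without 24h replicate 2 or either 8h array. In the Wnt list 4 of 18 genes rose and 3 fell, with a median of 0.11, or -0.05 to 0.32 with 1 array left out (2 rose without 24h replicate 1, and 1 fell without 8h replicate 1 or without the block). Wnt5b, a ligand of non-canonical signalling, rose by 1.23 ± 0.17 (adjusted p = 0.00163), and Nkd1, a feedback inhibitor, by 1.30 ± 0.19 (adjusted p = 0.00194), both called in every fit. Wnt6, a ligand, fell by 2.11 ± 0.43 (adjusted p = 0.00847, but 0.0722 without 24h replicate 1 and 0.0618 without 8h replicate 1). In the LIF and STAT3 list 3 of 14 genes fell and 1 rose, with a median of -0.23, or -0.23 to -0.10 with 1 array left out (1 fell without 24h replicate 1 or without the block). Il6st (gp130), the signalling receptor of LIF, fell by 0.65 ± 0.13 (adjusted p = 0.00855, but 0.0706 without 24h replicate 1 and 0.0586 without 8h replicate 2).

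Of 21 genes that p53 is known to induce or that act in apoptosis, 10 rose, where 12.7% of all genes rose, 0 fell and 11 were not called. The median change was 0.55, with 0.64 in the replicate 1 pair and 0.27 in the replicate 2 pair (3 rose and 0 fell without the block). The count that rose was 4 without 24h replicate 1 and 6 without 8h replicate 1. Ccng1, cyclin G1, had levels of 3.27 and 2.81 at 24h, against 1.91 and 2.12 at 8h, and rose by 1.03 ± 0.17 (adjusted p = 0.00301). It was called in every fit. Pmaip1 (Noxa), a BH3-only killer protein, rose by 0.96 ± 0.20 (adjusted p = 0.00894, but 0.0837 without the block, 0.0547 without 24h replicate 1 and 0.0534 without 8h replicate 2). Perp, a p53 target of desmosomes, rose by 1.05 ± 0.29 (adjusted p = 0.0275, but 0.0742 without the block, 0.187 without 24h replicate 1 and 0.181 without 8h replicate 2).

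Inhibitors of the cell cycle moved in both directions. Cdkn2b (p15), an inhibitor of Cdk4 and Cdk6, had levels of 0.48 and 0.13 at 24h, against -1.58 and -1.58 at 8h, and rose by 1.89 ± 0.30 (adjusted p = 0.00258). Cdkn1b (p27), an inhibitor of Cdk2, had levels of 1.73 and 1.85 at 24h, against 2.20 and 2.42 at 8h, and fell by 0.52 ± 0.10 (adjusted p = 0.00625). Both were called in every fit. Cdkn1a (p21) rose by 0.79 ± 0.25 (adjusted p = 0.0499, but 0.106 without the block, 0.302 without 24h replicate 1 and 0.283 without 8h replicate 1). Ccnd2 fell by 0.91 ± 0.29 (adjusted p = 0.048), a call lost without the block (0.332), 24h replicate 1 (0.324), 8h replicate 1 (0.113) or 8h replicate 2 (0.18). Ccnd1, at 2.25 and 2.87 at 24h against 1.77 and 2.73 at 8h, was not called (adjusted p = 0.514). Of 26 genes of DNA replication and mitosis, 1 fell, Mki67 (-0.51 ± 0.11, adjusted p = 0.0127, but 0.085 without the block, 0.0895 without 24h replicate 1, 0.0779 without 8h replicate 1), while 0 rose. Their changes ran from -0.51 to 0.27, with a median of -0.09, or -0.12 to -0.05 with 1 array left out. When the arrays were scaled on the housekeeping median 5 of them rose, where 5199 of all 15662 tested genes rose.

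The 12 largest rises among genes well above background on all 4 arrays began with Edn2. Edn2, an endothelin ligand, had levels of 3.49 and 1.59 at 24h, against -1.06 and -2.96 at 8h, and rose by 4.55 ± 0.66 (adjusted p = 0.0018), 23.5-fold. Scin (scinderin), an actin-severing protein, rose by 3.66 ± 0.30 (adjusted p = 0.000164), with 1.23 and -0.09 at 24h against -2.63 and -3.55 at 8h. Cdh13, a cadherin without a cytoplasmic domain, rose by 3.23 ± 0.50 (adjusted p = 0.00228). Edn2, Scin and Cdh13 were called in every fit, as were Gata6, Fgfr4, Scarf2 (3.15 ± 0.29), Cyp11a1, the first enzyme of steroid synthesis (3.11 ± 0.38), Epha8, an ephrin receptor (3.11 ± 0.24), Hs6st2, a heparan sulfate sulfotransferase (3.11 ± 0.20), Rasef (2.99 ± 0.30) and Slc39a8, a zinc transporter (2.96 ± 0.25). The other of the 12 largest rises, Baalc (2.98 ± 0.80, adjusted p = 0.0273), was not called without the block (0.116), without 24h replicate 1 (0.168) or without 8h replicate 2 (0.181).

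Some risers were not well above background at 8h. Bace2, a membrane protease, was higher at 24h by at least 15.5-fold (adjusted p = 0.000121), Cthrc1, a secreted protein of matrix, at least 9.50-fold (adjusted p = 0.000354), Pde10a, a phosphodiesterase, at least 8.42-fold (adjusted p = 0.00024) and Rnf183, a ubiquitin ligase, at least 8.07-fold (adjusted p = 0.00228). All 4 were called in every fit. Dennd2d was higher by at least 10.0-fold (adjusted p = 0.00698, and 0.0595 without 24h replicate 1).

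The 12 largest falls among such genes began with Npy. Npy, neuropeptide Y, had levels of -1.40 and -2.67 at 24h, against 2.28 and 1.50 at 8h, and fell by 3.92 ± 0.55 (adjusted p = 0.00148), 15.2-fold. Itga9, an integrin chain, had levels of -2.21 and -1.59 at 24h, against 1.35 and 1.49 at 8h, and fell by 3.32 ± 0.41 (adjusted p = 0.000914). The others of the 12 called in every fit were Lefty2, Pga5, a pepsinogen (-3.58 ± 0.36), Efr3b (-3.44 ± 0.41), Krtdap (-3.25 ± 0.59), Xaf1 (-3.18 ± 0.54), Stard8 (-3.16 ± 0.29), Klk11, a kallikrein (-3.05 ± 0.36), and Dusp27 (-3.04 ± 0.47). Nanog and Mcf2 complete the 12. Mcf2 had levels of -4.29 and 0.72 at 24h, against 0.85 and 2.54 at 8h. Its fall of 3.48 ± 1.07 (adjusted p = 0.0445) was not called without the block (0.102), without 24h replicate 1 (0.16), or without 8h replicate 1 (0.0969) or 2 (0.183). Lrrc15 was at least 11.6-fold lower at 24h (adjusted p = 3.39e-05), Wif1, a secreted Wnt inhibitor, at least 8.65-fold (adjusted p = 0.000327), Ccn4, a Wnt target, at least 5.07-fold (adjusted p = 0.000475), Serpinb1b at least 4.14-fold (adjusted p = 0.000128) and Acsm4 at least 4.05-fold (adjusted p = 0.000635). All 5 were not well above background at 24h and were called in every fit.

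Of 26 glycolysis and hypoxia genes, 2 rose and 3 fell, with a median of -0.17, or -0.20 to -0.03 with 1 array left out. Car9, a carbonic anhydrase of the hypoxia response, rose by 1.89 ± 0.27 (adjusted p = 0.00158), with -1.28 and -1.90 at 24h against -3.76 and -3.19 at 8h. Slc2a3 (Glut3), a glucose transporter, fell by 1.32 ± 0.23 (adjusted p = 0.00386), with 5.05 and 5.28 at 24h against 6.43 and 6.55 at 8h. Both were called in every fit, and the groups did not overlap. Of 20 respiratory chain genes, 6 fell and 0 rose, with a median of -0.24 (3 fell without the block, without 8h replicate 1 or 2, or on quantile normalization, 2 without 24h replicate 1, and 1 on the housekeeping median). Ndufb5, of complex I, fell by 0.65 ± 0.11 (adjusted p = 0.00332), and Cox5a, of complex IV, by 0.60 ± 0.10 (adjusted p = 0.00315). Both were called in every fit, but on the housekeeping median at most 1 of them was called lower.

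Over all tested genes, 12.7% rose and 10.2% fell. Of 24 cholesterol synthesis genes, 3 rose and 2 fell, near those shares. Of 25 ribosome biogenesis genes, 0 rose and 1 fell, and in neither list was any called without the block. Of 22 genes of the unfolded protein response, 2 rose and 2 fell. Of 13 amino acid transporters, 1 rose and 1 fell. Slc43a1, of that list, rose by 1.29 ± 0.15 (adjusted p = 0.000599) and was called in every fit. Of 14 retinoic acid genes, 1 rose and 1 fell, and of 12 germ cell and 2-cell stage genes, 1 rose and 2 fell. Ddx4, the helicase that marks germ cells, rose by 0.74 ± 0.11 (adjusted p = 0.0021) and was called in every fit. Of 12 D cyclins and inhibitors of cyclin-dependent kinases, 3 rose and 3 fell. Of 11 fibroblast genes, 1 rose, Loxl1, an enzyme that crosslinks elastin (1.66 ± 0.17, adjusted p = 0.000354, called in every fit), and 0 fell. Of 17 housekeeping genes, 2 rose and 1 fell, with a median of -0.14, or -0.21 to -0.08 with 1 array left out.

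The levels at the earlier times show where each gene stood before this step. Gata6 averaged -4.10 at 0h, -4.04 at 4h, -3.74 at 8h and 0.66 at 24h, and Krt19 averaged 0.27, -0.09, 1.01 and 3.57 at the same times. For both, the 24h level stood farthest from the level at 0h. Fgfr4 averaged -1.66 at 0h, -1.61 at 4h, 0.48 at 8h and 4.18 at 24h. Hand1 averaged -5.13 at 0h, -3.26 at 4h, -2.20 at 8h and -0.49 at 24h.

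Evx1, Npy and Zic2 had been higher at 4h or 8h than at 0h. Evx1 averaged -2.83 at 0h, 1.01 at 4h, -0.04 at 8h and -2.76 at 24h, close to its level at 0h. Npy averaged -3.06 at 0h, 0.07 at 4h, 1.89 at 8h and -2.04 at 24h. Zic2 averaged -1.10 at 0h, 1.11 at 4h, -0.14 at 8h and -4.99 at 24h, below its level at 0h. Vim averaged 4.12 at 0h, 4.50 at 4h, 4.59 at 8h and 1.92 at 24h. These averages are of 2 arrays and are given as levels, with no test between times other than 24h and 8h.

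**Figure D5:**
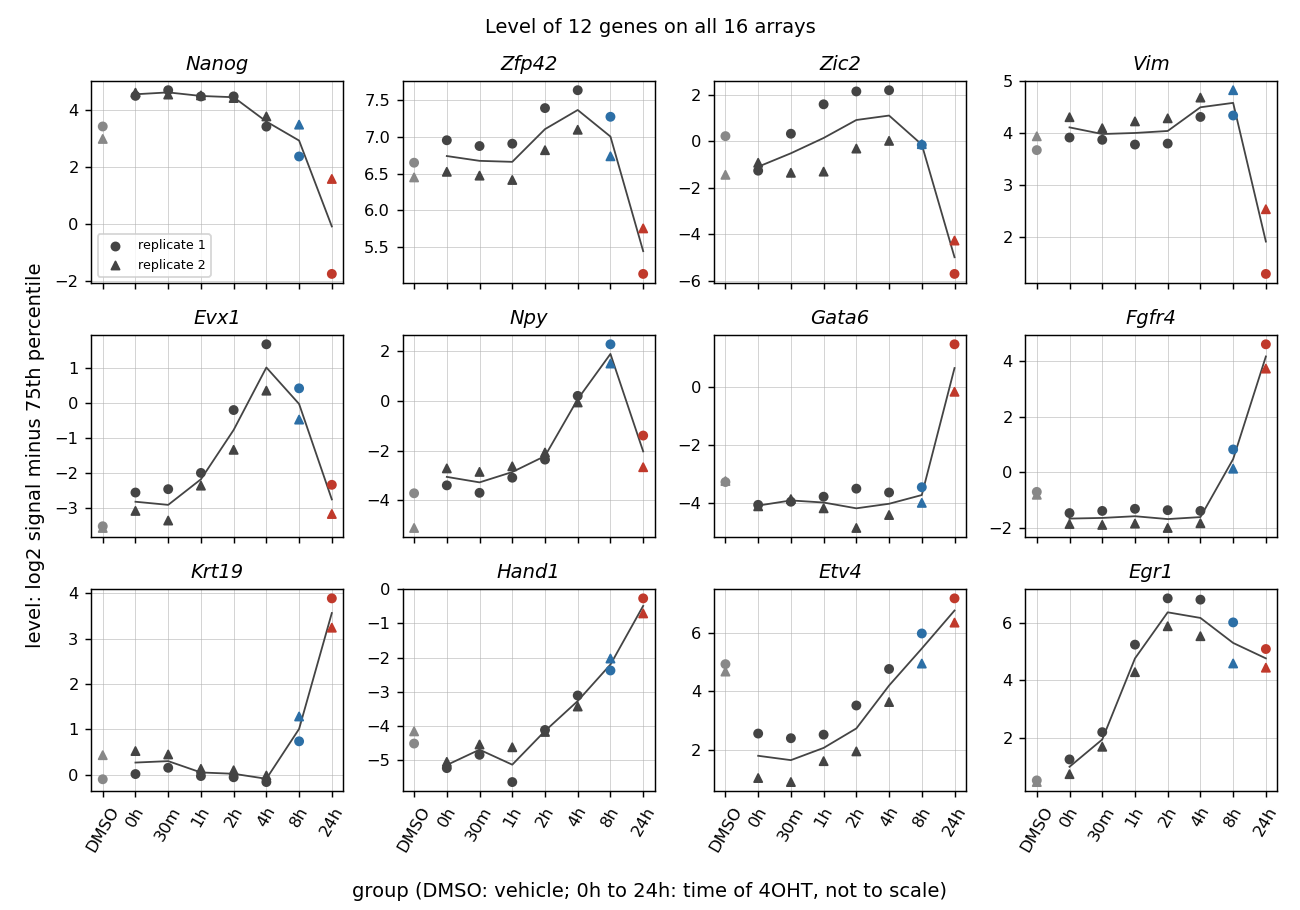
Level of 12 genes (vertical axes, log2 relative to the 75th percentile) on all 16 arrays by group in time order, with DMSO at the left, circles for replicate 1, triangles for replicate 2, and a line through the means from 0h to 24h. The 8h arrays are blue and the 24h arrays red; Gata6 averages -3.74 at 8h and 0.66 at 24h, and Npy 1.89 at 8h and -2.04 at 24h.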

How the data were processed

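RNA of 16 samples was hybridised to 1-colour Agilent mouse arrays, and the authors deposited scanner tables with the processed intensity of each spot. Scanning used Agilent Feature Extraction 11.0.1.1, per the file headers. The authors' value table, also on the intensity scale, served to settle which array is which sample. Each array matched 1 of its columns at 100% of spots (within 0.6%), against at most 4.99% for the next column. The labels name Cy5 as dye, while the files hold the green channel.

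Here log2 intensities were centred on the 75th percentile of each array, and control and outlier spots were left out. Probes were named through accessions in RefSeq (GRCm38.p6): of 55681 probes, 27656 named 1 gene, 28025 none and 0 several. The brightest probe stood for each of 20972 genes, and a gene was tested where some group had both its arrays well above background (15662 genes). Among called genes 970 had another tested probe, which moved the opposite way in 7.

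limma 3.58.1 (R 4.3.3) fitted 8 group means with replicate number as a block over all 16 arrays, with Benjamini-Hochberg adjustment over all tested genes. Replicate number pairs the samples: each number is 1 slide, and arrays of the same number deviated together in every pair of groups (correlations of 0.328 to 0.659). The code of the fit was run on data simulated from the fitted model itself, which cannot show whether that model holds for these arrays.

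Genes named are the 12 largest rises and 12 largest falls among called genes above background on all 4 arrays, the 5 largest bounds in each direction, up to 4 called genes per list and direction, and 35 fixed genes. The members and lists were chosen with earlier results of these data known. Alternatives were the block, the arrays fitted, scaling, background correction, filters, probe averaging, array identity and leaving out each array. The normexp alternative used the median signal of each spot. Some genes are not reported here.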

Additional observations from a re-analysis of the deposited data

How the results depend on the processing

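Of 3582 called genes (1982 higher and 1600 lower at 24h), 1384 stayed called without the replicate block (821 and 563). Fitting only the 4 arrays of 24h and 8h left 0 calls in limma (0 and 0), with 3938 genes at an unadjusted p under 0.05. Arrays as attached to the scanner files gave 9 calls (5 and 4). Leaving out 1 array gave 1831 to 3231 calls, with 1041 to 1783 higher and 790 to 1448 lower, the fewest without 24h replicate 1. Without 8h replicate 2 there were 1530 higher and 1008 lower. Asking for at least 2-fold left 1187 (698 and 489). Scaling on the housekeeping median gave 5795 (5199 and 596). Median centring, quantile normalization, normexp, the filters, probe averaging, the value table and scaling on the housekeeping mean gave 3455 to 3837 calls. The median change of all genes was 0.11 with no filter on dim probes. The causes were not tested.

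Of the 194 named genes that were called, 108 kept the call without the block, and 115, 163, 144 and 135 without 24h replicate 1, 24h replicate 2, 8h replicate 1 and 8h replicate 2. The 4 sign changes were Ccn1 with arrays as attached (0.0517), Ccnd3 in the value table (1.79), and Fgf8 (0.19) and Zscan4c (0.0522) over the mean of their probes. With 2 arrays a group, the number of arrays limits the precision.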

Other observations

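Genes of interferon response and antigen presentation moved in both directions between 8h and 24h. Of 20 tested, 6 rose and 6 fell, with a median of 0.10, or -0.03 to 0.17 with 1 array left out (2 and 3 without the replicate block, and 4 rose without 24h replicate 2 or 8h replicate 1). Ifitm1, a membrane protein of the interferon-induced family that stem cells also express, had levels of 4.49 and 5.03 at 24h, against 6.93 and 7.18 at 8h. It fell by 2.29 ± 0.14 (adjusted p = 6.42e-05 in limma). Ifitm2, of the same family, fell by 1.05 ± 0.16 (adjusted p = 0.00223). Bst2 (tetherin), which holds viruses at the cell surface, had levels of 4.79 and 4.25 at 24h, against 3.21 and 2.81 at 8h, and rose by 1.51 ± 0.12 (adjusted p = 0.000128). Tap1, a peptide transporter of antigen presentation, rose by 1.84 ± 0.23 (adjusted p = 0.00101). It was well above background on 1 of the 2 arrays at 8h, so the size of that rise is uncertain. These 4 genes kept their calls without the block and without each of the 4 arrays in turn.

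Hox genes, imprinted genes, genes of DNA methylation and genes of prostaglandin synthesis also held calls. Their counts with the block stand beside 12.7% of all tested genes that rose and 10.2% that fell. Those without the block stand beside 5.24% and 3.59%. Of 16 Hox genes and cofactors tested, 4 rose and 4 fell, with a median of -0.21, or -0.25 to 0.05 with 1 array left out (2 and 2 without the block, and 2 rose without 8h replicate 1). Of 18 imprinted genes, 3 rose and 4 fell (2 and 0 without the block). The count of imprinted genes that fell was 0 without 24h replicate 1, 2 without 24h replicate 2 or 8h replicate 2, and 1 without 8h replicate 1, and 5 rose without 24h replicate 2. Dlk1, an imprinted Notch-related ligand, had levels of 1.80 and 1.57 at 24h, against -0.18 and -0.25 at 8h, and rose by 1.90 ± 0.17 (adjusted p = 0.000231). Of 14 DNA methylation genes, 1 rose and 5 fell. The count that fell was 0 without the block or without 24h replicate 1, 1 without 8h replicate 2 and 3 when 8h replicate 1 was left out, where 2 rose. Gadd45a, a stress gene also linked to demethylation, rose by 1.46 ± 0.24 (adjusted p = 0.00299). Of 13 prostaglandin genes, 3 rose and 1 fell. Ptgds, a prostaglandin D synthase, rose by 1.45 ± 0.16 (adjusted p = 0.000597). Ptgs1 (Cox-1), the gene that fell, was not well above background at 24h.

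Krt23, an acidic keratin, lies outside the rule for named genes and was chosen after its values were seen. It had levels of 2.63 and 0.42 at 24h, against -6.99 and -3.58 at 8h, where replicate 2 alone was well above background. The value of 8h replicate 1 lies under -4.89, the lowest level well above background on that array, so the size of that difference is not measured. The fitted change of 6.81 ± 1.03 (adjusted p = 0.00209 in limma, and 0.00316 without the block) rests on it, and the replicate 2 pair alone differed by 4.00.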
